A study of Mus musculus with 6 samples.

Results

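The 6 genes described are Rora, the 2 REV-ERB receptor genes Nr1d1 and Nr1d2, Arntl (which encodes BMAL1), Clock and Npas2. They were taken by gene symbol from the platform annotation of the non-normalized table, which listed 10 probes for them among 34885 probes with a single symbol, and 19057 symbols in all. Liver RNA came from C57BL/6J mice aged 18 weeks in 3 arms: high-fat diet with nobiletin (NOB), high-fat diet with vehicle (HFD) and regular chow (RC), whose mice are also labelled as given vehicle. Nobiletin, a flavone of citrus peel, was dosed orally at 200 mg/kg on alternate days over 10 weeks. Each arm was sampled at zeitgeber time 14 (ZT14, 2 h after lights off) and at ZT2 (2 h after lights on), in a 12 h light and 12 h dark cycle with food always available. Each of the 6 Illumina bead arrays carried RNA pooled from 4 mice, so the spread between mice cannot be seen, and differences between single arrays are values without a test. The sources used here do not state their sex.

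RORA and the REV-ERB proteins are nuclear receptors that bind the same DNA element, the ROR response element. RORA activates transcription there, and NR1D1 and NR1D2 repress it by recruiting the NCOR and HDAC3 corepressor complex. Arntl is the best known gene under this competition, and nobiletin is known as an agonist of the ROR receptors. BMAL1 in turn pairs with CLOCK, or with its paralogue NPAS2, on E-boxes to drive Nr1d1, Nr1d2 and the Per and Cry genes, which closes a loop. In the liver of mice fed chow, Nr1d1 transcripts are known to be high by day and Arntl transcripts high towards the end of the night.

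Promoter sequences are shown for Arntl, whose order between the times differed most between the arms, and for Nr1d1 and Nr1d2, which encode the repressors of this element. They come from RefSeq on GRCm38.p6, cover 250 bases before to 50 after an annotated start, and matched all 6 genes in 9 windows. Both strands were searched for AAAGTAGGT, the first 9 letters of the ROR element known from the Bmal1 gene, for the receptor half-site AGGTCA, for the E-box CACGTG and for the D-box TTATGNAA, which PAR bZIP factors bind. Capitals mark a match.
Arntl, chr7:113207261-113207560, + strand: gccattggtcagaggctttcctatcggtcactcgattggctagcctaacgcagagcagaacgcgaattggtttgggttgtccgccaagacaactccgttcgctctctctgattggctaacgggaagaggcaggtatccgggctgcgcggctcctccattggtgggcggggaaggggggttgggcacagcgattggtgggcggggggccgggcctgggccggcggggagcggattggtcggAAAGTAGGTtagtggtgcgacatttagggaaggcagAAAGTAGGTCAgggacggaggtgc
Nr1d1, chr11:98775328-98775627, - strand: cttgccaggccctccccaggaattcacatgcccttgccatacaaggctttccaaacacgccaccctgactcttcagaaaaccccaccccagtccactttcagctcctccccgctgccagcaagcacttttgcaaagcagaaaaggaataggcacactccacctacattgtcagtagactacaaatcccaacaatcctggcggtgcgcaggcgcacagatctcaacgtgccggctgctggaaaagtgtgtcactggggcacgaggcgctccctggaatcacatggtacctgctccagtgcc
Nr1d2, chr14:18239057-18239356, - strand: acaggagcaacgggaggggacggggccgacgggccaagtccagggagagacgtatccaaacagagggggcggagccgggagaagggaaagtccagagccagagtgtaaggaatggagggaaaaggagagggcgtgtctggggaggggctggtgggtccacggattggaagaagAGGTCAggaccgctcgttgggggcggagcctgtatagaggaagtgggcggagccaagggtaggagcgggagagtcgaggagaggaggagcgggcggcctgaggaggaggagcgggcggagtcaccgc
The Arntl window held AAAGTAGGT at -10 to -2 and at 26 to 34, counted from the start base as 0, and the half-site AGGTCA at 31 to 36 overlaps the second of these. The longer letters occurred in 60 of 32851 promoter windows of this length, or 0.183%, and among the 6 genes they were found in the Arntl windows alone. The other Arntl start lies upstream, and its window held the first of these matches. The half-site stood at -77 to -72 in the Nr1d2 window and, reversed, in 1 of 3 Clock windows, against 16.3% of all windows. None of the 9 windows held the E-box or the D-box, which 7.15% and 3.38% of all windows held. A match is a description of the letters and not a bound site. The lack of a match covers only these exact letters within these windows, and sites elsewhere in a gene were not searched.

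Of the 6 genes, 5 had a probe with a detection p under 0.01 on at least 2 arrays and were measured, each by 1 probe. Levels are given on a log2 scale after neqc, a background correction and quantile normalization. Rora, Nr1d2, Arntl and Clock were detected on all 6 arrays and Nr1d1 on 3. Npas2 was detected on none: its probe had raw intensities of 51.2 to 60.6 and detection p values of 0.245 to 0.72, so it has no measured level here. The other probes could not serve as a check of these 5. The other Rora probe (raw 49.3 to 60.2), the other Nr1d2 probe (54.7 to 64.5) and the third Clock probe (51.4 to 55.2) were detected on no array. The second Clock probe reached a detection p of 0.00534 in the NOB pool at ZT2, at a raw intensity of 79.1, and was not detected on the other 5 arrays.

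**Figure D1:**
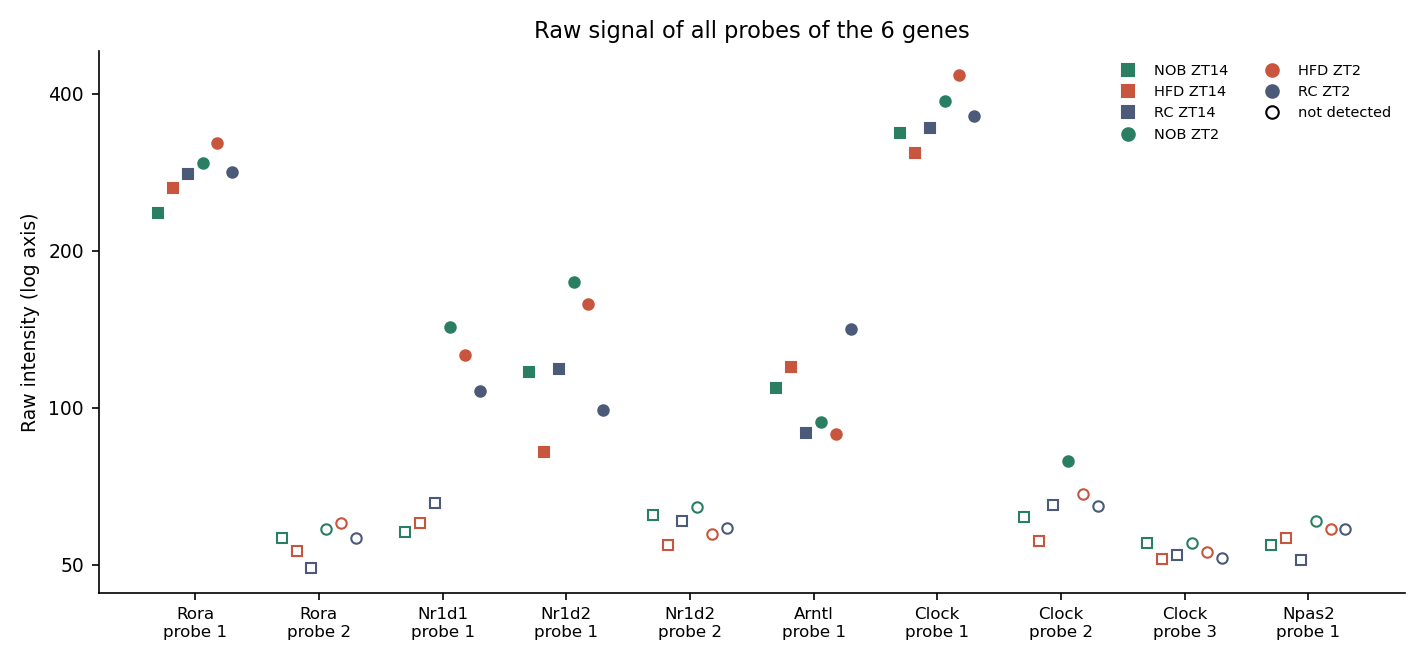
Raw intensity (log axis) of all 10 probes of the 6 genes on the 6 arrays, squares for ZT14 and circles for ZT2, with open symbols where the detection p was at least 0.01. The first probes of Rora and Clock lie above 200 on every array, those of Arntl, Nr1d1 and Nr1d2 lie between 57.7 and 174, and Npas2 stays at 51.2 to 60.6.

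Between 28.1% and 32.0% of the 45281 probes were detected per array, and median raw intensities were 57.5 to 62.4, so the Arntl and REV-ERB probes lay close to background and their differences are imprecise. Of 6 hepatocyte markers, 5 were detected on every array, while the single probe of Alb was dim (65.0 to 78.2) and detected on 4. Skeletal muscle markers set the RC pool of ZT14 apart, with all 10 detected and a summed processed intensity of 4148. The HFD pool of ZT14 came next, with 8 of the 10 detected and a sum of 708. The muscle sums were 89.5 in NOB at ZT14, and 83.6, 134 and 112 in NOB, HFD and RC at ZT2. Of the 10, Myh4 and Ckm were detected in no pool but RC at ZT14, and the other 8 were also detected in HFD at ZT14. Summed Kupffer cell markers ranged from 1058 in RC at ZT14 to 2208 in NOB at ZT14, and Cd5l was detected nowhere. Lymphocyte markers were at 42.8 to 173, highest in HFD at ZT14, with Cd3e undetected throughout. The part of these cells in the results below was not tested. In whole tissue, fewer cells of a type and less RNA per cell cannot be told apart.

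Arntl lay lower at ZT14 than at ZT2 on chow and higher at ZT14 than at ZT2 in both high-fat arms. Its levels at ZT14 were 6.07 in NOB, 6.26 in HFD and 5.85 in RC, and at ZT2 they were 5.66 in NOB, 5.36 in HFD and 6.89 in RC. The RC pool of ZT2 was the highest of all 6 and the HFD pool of ZT2 the lowest, and the ZT14 pools lay between them. The raw intensities behind these levels were 109, 120 and 89.4 in NOB, HFD and RC at ZT14 and 94.0, 89.3 and 142 at ZT2. ZT14 minus ZT2 was 0.42 in NOB, 0.90 in HFD and -1.03 in RC, where 17.3%, 1.29% and 1.75% of the 14416 detected probes differed by at least as much. A difference of at least 1.5-fold in opposite directions in HFD and RC was found for 0.291% of the probes. In descending order, the first step, of 0.63, was larger than the moderated residual SD of 0.40 in a fit with additive terms for arm and time. The 4 later steps, of 0.19 to 0.30, were smaller. The moderated SD draws on the spread of all probes. It is not Arntl's own residual SD, which is not given, so the steps are not judged against that. The additive fit also counts a time difference that depends on the arm as spread. In a fit with a term for that dependence, described further on, the moderated SD was 0.17, which all 5 steps exceeded. It rests mostly on the other probes, as the fit has 1 residual degree of freedom and moderation added 5.19. The steps were not set against Arntl's own spread in that fit.

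The comparison between times over all 3 arms asked which of these transcripts followed the time of day. limma was fitted with additive terms for arm and time, with Benjamini-Hochberg adjustment over 14416 probes and a threshold of 0.05. It called 1 of the 5 measured genes, Nr1d1, as lower at ZT14, against 0.146% of the probes called and 0.0416% called lower. At an unadjusted p under 0.05 it was also 1 of the 5, against 10.6%. Nr1d1 entered the fit through its ZT2 arrays alone, the group where it was high, so the filter favoured this direction and its count is a description. A difference between times that depends on the arm counts as residual spread in this fit. Arntl accordingly had a difference of 0.10 ± 0.32 (SE, adjusted p = 0.954), higher at ZT14 in 2 of 3 arms.

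Nr1d1 was lower at ZT14 in every arm. Its levels were 4.35 in NOB, 4.44 in HFD and 4.87 in RC at ZT14, and 6.59 in NOB, 6.18 in HFD and 6.28 in RC at ZT2. The ZT14 values had detection p values of 0.402, 0.210 and 0.0267 and none was detected, while all 3 ZT2 values were, so the groups did not overlap, as for 11.7% of the probes. The level at ZT14 was at least 2.41-fold lower over the arms, a bound against the dimmest detected probe of each array. Within arms the bound was 2.84-fold in NOB, 2.19-fold in HFD and 2.24-fold in RC. The measured difference of -1.79 ± 0.17 (SE, limma adjusted p = 0.0219) rests on background at ZT14. The call ended with 1 probe per gene (adjusted p = 0.0572), without a detection filter (0.396), without the HFD array of ZT14 (0.138) and without that of ZT2 (0.132), within a range of 0.00667 to 0.396 over the alternatives. Without the RC array of ZT14, which held the most muscle transcripts, the difference was -2.02.

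For Nr1d2 the sign of ZT14 minus ZT2 was the reverse of that for Arntl in every arm. Its levels at ZT14 were 6.24 in NOB, 5.33 in HFD and 6.52 in RC, and at ZT2 they were 6.96 in NOB, 6.64 in HFD and 6.07 in RC. The HFD pool of ZT14 was the lowest by a step of 0.74, above the moderated residual SD of 0.36 in the additive fit. The other 5 pools followed each other in steps of 0.12 to 0.32, within that SD. With the further term the moderated SD was 0.18, which steps of 0.32 and 0.29 also exceeded. Neither value is the gene's own residual SD. ZT14 minus ZT2 was -0.72 in NOB, -1.31 in HFD and 0.45 in RC, and 3.70%, 0.409% and 16.7% of the probes differed as much. The raw intensities were 117, 82.4 and 119 in NOB, HFD and RC at ZT14 and 174, 159 and 99.0 at ZT2. Over the arms the difference was -0.53 ± 0.29 (SE, limma adjusted p = 0.577), lower at ZT14 in 2 of 3 arms. It was -0.14 without either HFD array and -1.02 without either RC array.

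Rora and Clock varied little with the time. Rora had levels of 7.58, 7.77 and 8.14 in NOB, HFD and RC at ZT14 and of 7.89, 7.90 and 8.14 at ZT2. The RC pools were the highest at both times, 0.23 above the next. The NOB pool of ZT14 was the lowest by 0.19, against a moderated residual SD of 0.16 in the additive fit. Over the arms ZT14 minus ZT2 was -0.15 ± 0.13 (SE, limma adjusted p = 0.725). Clock had levels of 8.15, 8.03 and 8.46 in NOB, HFD and RC at ZT14 and of 8.34, 8.40 and 8.56 at ZT2. It lay lower at ZT14 in 3 of 3 arms, by 0.19 in NOB, 0.37 in HFD and 0.10 in RC, and did not pass (-0.22 ± 0.13, adjusted p = 0.584).

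**Figure D2:**
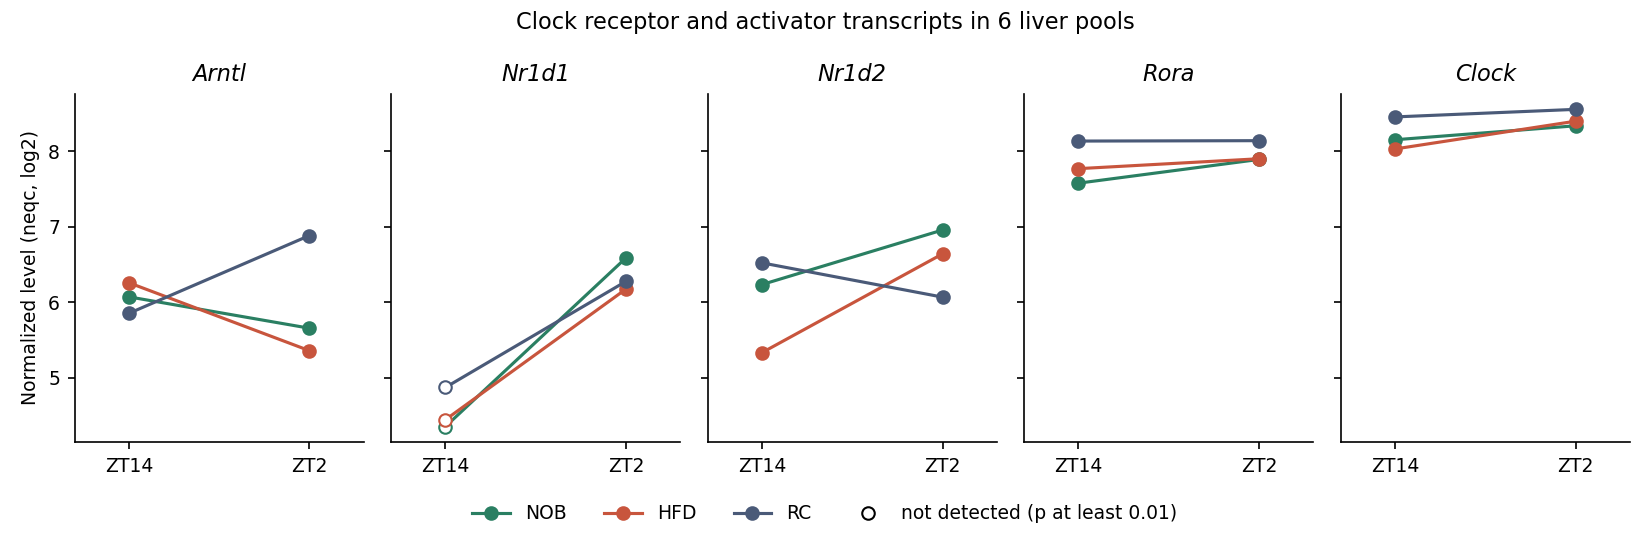
Normalized log2 levels (neqc) of the 5 measured genes at ZT14 and ZT2, 1 line per arm and 1 array per point, with open points where the probe was not detected. The lines of Arntl and Nr1d2 cross, with RC at 5.85 and 6.89 for Arntl and at 6.52 and 6.07 for Nr1d2 at ZT14 and ZT2, while all 3 Nr1d1 lines run the same way.

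Within arms, 2 of the 5 measured genes differed by at least 1.5-fold between ZT14 and ZT2 in NOB, 3 in HFD and 2 in RC, against 7.20%, 5.33% and 9.04% of the probes. Nr1d1 was among them in every arm, Nr1d2 in NOB and HFD, and Arntl in HFD and RC. Nr1d1 passed the detection filter through its ZT2 arrays alone and was undetected at ZT14 in every arm. The filter thus favoured its place in these counts, which are descriptions. A fit with 1 further term, added after the values were seen, asked whether ZT14 minus ZT2 differed between the 2 high-fat arms and chow. It has 1 residual degree of freedom, namely how far NOB and HFD differed in their change between times, and the moderation across probes added 5.19. For Arntl the mean of the high-fat arms was 0.66 and the RC value -1.03, a gap of 1.69 ± 0.29 (SE, limma adjusted p = 0.304). For Nr1d2 these were -1.02 and 0.45, a gap of -1.47 ± 0.31 (limma adjusted p = 0.304). Neither passed, and 0 of the 14416 probes did (0%), while both genes were among the 10.1% of probes with an unadjusted p under 0.05. Over 7 other normalizations, filters and units of fit the adjusted p of Arntl ranged from 0.0305, with median scaling, to 0.499, and that of Nr1d2 from 0.0572 to 0.499. The gaps were -0.58 for Nr1d1, -0.22 for Rora and -0.18 for Clock, with limma adjusted p values of 0.555, 0.786 and 0.833. That of Nr1d1 rests on background at ZT14 in every arm, so its size is not a measured one. The RC value at ZT14 rests on the pool that held the most muscle transcripts, and leaving that pool out removes the term. The HFD value at ZT14 rests on the pool with the next most. The part of muscle in either was not tested.

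**Figure D3:**
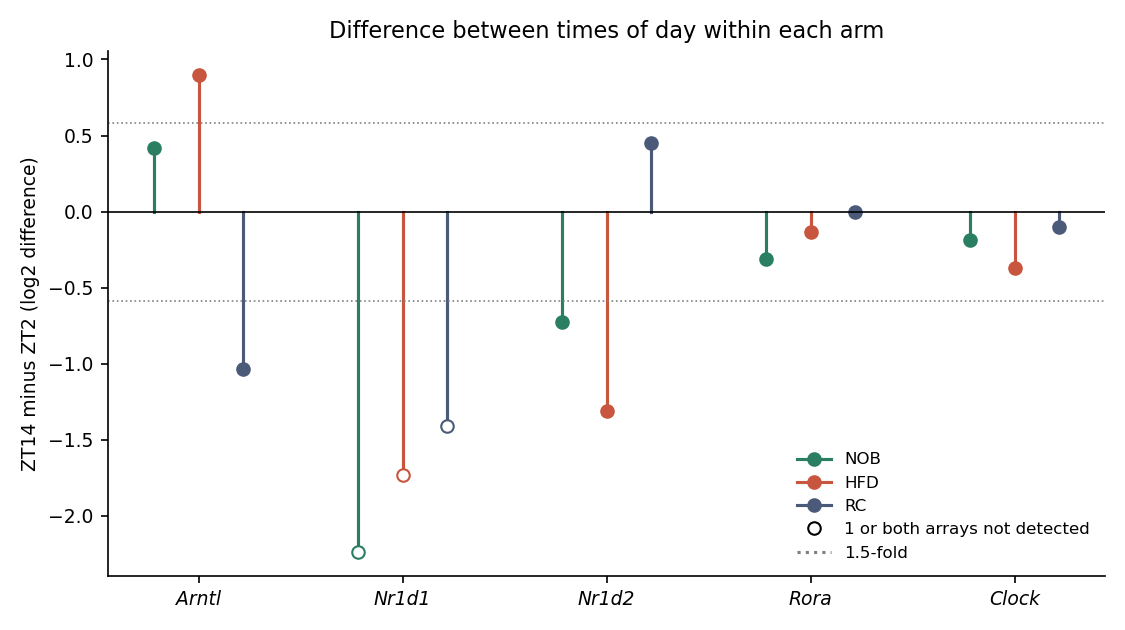
ZT14 minus ZT2 (log2 difference between 2 arrays) in NOB, HFD and RC for the 5 measured genes, with dotted lines at 1.5-fold and open points where 1 or both arrays were not detected. Arntl lies at 0.42, 0.90 and -1.03 and Nr1d2 at -0.72, -1.31 and 0.45, so both turn sign between the high-fat arms and RC.

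Setting NOB against HFD asked whether these transcripts moved with nobiletin. None of the 5 measured genes passed limma, against 0.173% of the probes, and 0 of the 5 had an unadjusted p under 0.05, against 8.43%. The largest difference was that of Nr1d2, 0.61 ± 0.36 (SE, adjusted p = 0.757), with a 95% interval of -0.23 to 1.45. It rested on the HFD arrays, at 0.0241 without that of ZT14 and 1.19 without that of ZT2. At least 1.5-fold between NOB and HFD was reached by 1 of the 5 at ZT14, which was Nr1d2, and by 0 at ZT2, against 5.94% and 6.22% of the probes. NOB was above HFD for Nr1d2 at both times, by 0.90 at ZT14 and by 0.32 at ZT2, and 1.78% and 24.7% of the probes differed as much. At ZT14 the NOB level of 6.24 stood beside 5.33 in HFD and 6.52 in RC, so NOB lay nearer to RC than HFD did. At ZT2 the levels of 6.96 in NOB, 6.64 in HFD and 6.07 in RC put NOB further from RC than HFD. Arntl lay at -0.19 at ZT14 and 0.30 at ZT2, and in both cases the NOB level fell between those of HFD and RC. Its difference over both times was 0.06 ± 0.40 (SE), with an interval of -0.87 to 0.98, which leaves room for changes of either sign.

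Nr1d1 was 0.41 higher in NOB than in HFD at ZT2, at 6.59 against 6.18, and undetected in both at ZT14, which gives no fold there. For Rora, the receptor gene of the compound's known target family, NOB minus HFD was -0.19 at ZT14 and -0.01 at ZT2, with an interval of -0.46 to 0.26 over both. Clock lay at 0.12 and -0.06, with an interval of -0.33 to 0.39. For Rora and Clock these intervals are narrower than for Arntl and Nr1d2, and the points at the 2 times lay close together.

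Setting HFD against RC asked which of these transcripts followed the diet. None of the 5 measured genes passed limma, against 6.30% of the probes, with 0 of 5 at an unadjusted p under 0.05, against 23.3%. At least 1.5-fold between single arrays was reached by 1 of the 5 at ZT14, Nr1d2, and by 1 at ZT2, Arntl, against 18.5% and 13.0% of the probes. The difference for Arntl depended on the time: HFD minus RC was 0.41 at ZT14, where 33.0% of the probes differed as much, and -1.53 at ZT2, where 1.17% did. At ZT2 the levels were 5.36 in HFD and 6.89 in RC, which is 2.88-fold lower in HFD, and muscle markers were low in both pools. NOB minus RC was likewise 0.22 at ZT14 and -1.23 at ZT2. Over both times HFD minus RC was -0.56 ± 0.40 (SE, adjusted p = 0.438, range 0.0401 to 0.978 over the alternatives). Without the RC array of ZT14 it was -1.41 (adjusted p = 0.0401), where RC rests on its ZT2 array alone, and without the RC array of ZT2 it was 0.29 (adjusted p = 0.460).

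Nr1d2 differed the other way round, with HFD minus RC at -1.19 at ZT14 and 0.57 at ZT2, and 3.97% and 13.7% of the probes differed as much. NOB minus RC was -0.29 at ZT14 and 0.89 at ZT2, where 42.4% and 2.30% did. Rora was lower in HFD than in RC at both times, by 0.37 at ZT14 and by 0.24 at ZT2, and lower in NOB than in RC, by 0.56 and by 0.25. Its NOB minus RC difference of -0.40 ± 0.16 had an adjusted p of 0.297 and did not pass, and was -0.16 (adjusted p = 0.597) with arrays scaled to a common median. In that comparison 0 of the 5 passed, against 1.10% of the probes, with Rora alone of them at an unadjusted p under 0.05, against 14.6%. Clock was lower in HFD than in RC by 0.42 at ZT14 and by 0.16 at ZT2. For Rora and Clock the HFD and RC arrays did not overlap, but this held for 51.6% of all probes. Their raw intensities at ZT2 were 322 and 434 in HFD against 283 and 362 in RC. When arrays were scaled to a common median, their differences over both times came to 0.00 and 0.01. HFD minus RC then turned to 0.16 for Rora and 0.24 for Clock at ZT2, and stayed negative at ZT14, at -0.15 and -0.22. NOB minus RC for Rora turned to 0.02 at ZT2. That scaling moved the median of all probes to 0.24, against -0.02 by neqc. Nr1d1 gave -0.10 at ZT2 and no fold at ZT14.

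**Figure D4:**
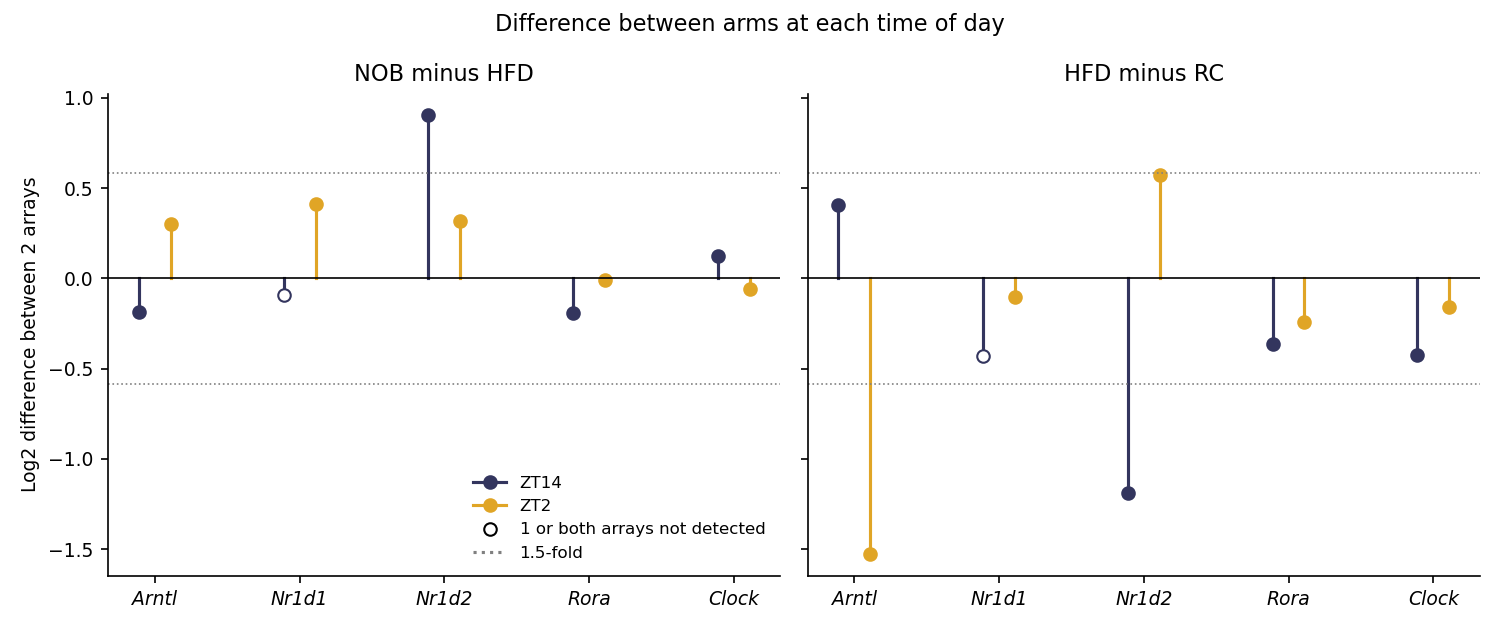
Log2 differences between arms at ZT14 and ZT2 for the 5 measured genes, NOB minus HFD on the left and HFD minus RC on the right, with dotted lines at 1.5-fold and open points where 1 or both arrays were not detected. For HFD minus RC, Arntl lies at 0.41 and -1.53 and Nr1d2 at -1.19 and 0.57, while for NOB minus HFD the only point past 1.5-fold is Nr1d2 at ZT14, at 0.90.

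Other genes of the loop were read from lists chosen with earlier results of these data known. Of 16 clock repressors and output factors, 10 were measured. None passed for ZT14 minus ZT2, where their median was 0.58 against -0.0048 for all probes. Usp2, a deubiquitinase gene with a daily rhythm, lay at 2.22 (adjusted p = 0.116) and the repressor gene Per2 at 1.64 (adjusted p = 0.0930). Per2 was 8.99 in NOB, 8.73 in HFD and 9.79 in RC at ZT14, and 7.82, 7.55 and 7.21 at ZT2. Its groups did not overlap, as for 11.7% of the probes. In 9 of the 10 genes ZT14 minus ZT2 was smaller, or more negative, in the high-fat arms than in RC, against 49.6% of all probes. The median gap was -1.08 against 0.0026 for all probes, with 0 called. Every gap rests on the same arrays, among them the RC pool of ZT14, which held the most muscle transcripts. The 10 genes are thus not independent of each other, and their count and median are descriptions without a test. The part of muscle in these gaps was not tested. Dbp, an output factor driven by E-boxes and named here after its values were seen, was the 1 gene of the list lower at ZT14 over the arms, at -1.63 in NOB and -2.01 in HFD, against 0.57 in RC. Without the RC array of ZT14 it was called lower at ZT14, and higher in HFD and in NOB than in RC, where RC rests on its ZT2 array alone. None passed for HFD minus RC, with Usp2 at -0.69 and Ciart at -0.56, nor for NOB minus HFD, with Bhlhe40 at 0.34 and Usp2 at 0.30.

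Among the cofactors of the receptors 8 of 12 were measured and none passed in these comparisons. The coactivator genes Ppargc1a and Ppargc1b, whose proteins work with RORA, lay at -0.47 and -0.24 for ZT14 minus ZT2, and at 0.44 and 0.48 for NOB minus HFD. For HFD minus RC, Tbl1xr1, of the NCOR complex, lay at 0.64 (adjusted p = 0.109) and Ppargc1b at -0.53 (adjusted p = 0.0944). None of the 3 Rorb probes was detected on 2 or more arrays.

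Of 14 genes reported as bound or regulated by these receptors in liver, 11 were measured. For HFD minus RC 2 rose and 3 fell, against 3.92% and 2.38% of the probes, with a median of 0.03 against -0.02. The hepatokine gene Fgf21, undetected on chow, was at least 13.8-fold higher (limma adjusted p = 0.000282). Fgf21 entered the fit through the high-fat arrays alone, where it was high. The filter thus favoured this direction, and its part in the counts is a description. Insig2, which restrains sterol synthesis, rose by 1.03 ± 0.20 (SE, limma adjusted p = 0.0300). The oxysterol hydroxylase gene Cyp7b1 fell by 2.08 (SE 0.30, limma adjusted p = 0.0102). The vasopressin receptor gene Avpr1a fell by 1.73 (SE 0.22, limma adjusted p = 0.00686). The gluconeogenic Pck1 fell by 0.84 (SE 0.19, limma adjusted p = 0.0432), and its difference was -0.58 without background correction. Its raw intensities, 115 to 159, lay not far above background. With arrays left out in turn the call for Insig2 was lost without RC at ZT14 (0.71) and without either HFD array, that for Pck1 without RC at ZT2 (-0.57) and without either HFD array, and those for Cyp7b1 and Avpr1a without HFD at ZT14. Without a detection filter only Fgf21 of these passed, and with median scaling Pck1 did not. Elovl3 at -0.78 and Cyp8b1 at 0.61 did not pass. Elovl3 passed without RC at ZT14 (-1.59, adjusted p = 0.0173), where RC rests on ZT2 alone, and was 0.03 without RC at ZT2. For NOB minus HFD none passed, with Avpr1a at 0.95 (adjusted p = 0.261) and Cyp7b1 at 0.83 (adjusted p = 0.501). For ZT14 minus ZT2 none passed either, with Lpin1 at 0.68 and G6pc at 0.48. For NOB minus RC 1 passed, Fgf21, at least 8.46-fold higher (limma adjusted p = 0.000934), against 0.541% of the probes. The same limit of the filter holds for it there.

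The genes most like Arntl in their pattern were ranked by Pearson r over the 6 arrays, among 1096 named genes with a span of at least 1 on the log2 scale. The highest were Ppard at 0.93, Id3 at 0.90, Xlr4a at 0.90, Sdc1 at 0.87 and Dct at 0.85, all with their highest level in the RC pool of ZT2. The lowest were Ppara at -0.98, Mia2 at -0.95, Tob2 at -0.84, Trib1 at -0.83 and Dbp at -0.82. Ppara, which encodes the fatty acid sensing receptor PPAR-alpha, was 6.84 in NOB, 6.72 in HFD and 6.81 in RC at ZT14, and 7.15, 7.28 and 6.14 at ZT2. Over the 5 arrays without RC at ZT2, r was -0.94 for Ppara, 0.83 for Ppard and -0.96 for Dbp, but 0.58 for Sdc1, 0.54 for Dct, -0.46 for Tob2 and -0.57 for Trib1. With Nr1d1 the highest were the alcohol dehydrogenase gene Adh4 at 0.99, Aph1a at 0.97 and the carbonic anhydrase gene Car14 at 0.97. As Nr1d1 was undetected at ZT14 in every arm, each r with it rests on background there. With Rora, among 4649 genes with a span of at least 0.5, they were Mier2 at 0.99, the lactate dehydrogenase gene Ldhd at 0.99 and Arfgap3 at 0.99. Among the members r was 0.85 for Rora and Clock, -0.63 for Nr1d2 and Arntl and -0.14 for Nr1d1 and Arntl. These values rest on 6 points that share arrays and normalization, and are descriptions.

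**Figure D5:**
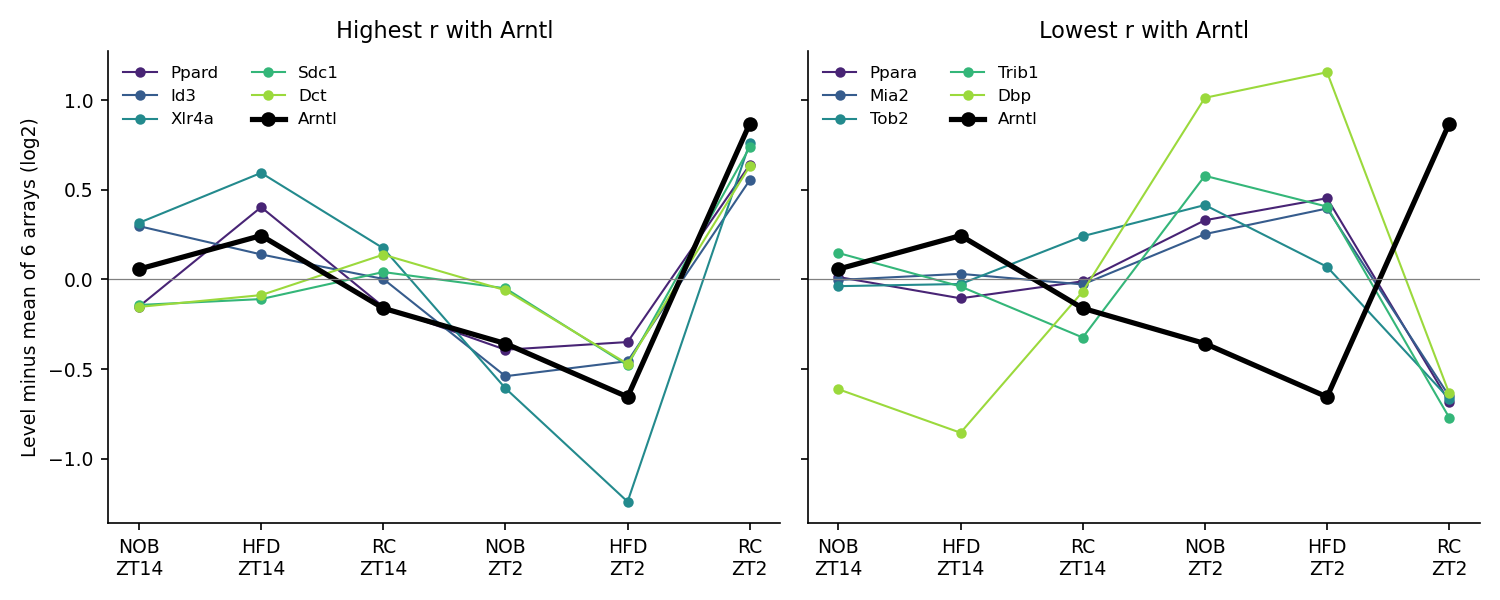
Levels minus each gene's mean over the 6 arrays (log2), with Arntl in black beside the 5 genes of highest r (left) and of lowest r (right), 1 array per point. Arntl is highest in RC at ZT2 and lowest in HFD at ZT2, and Ppara, with r = -0.98, runs opposite to it.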

How the data were processed

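Transcripts were measured on 6 Illumina bead arrays, 1 for each of 3 arms and 2 times, each with RNA pooled from 4 mice. Per the file headers, the deposited raw table holds for every probe an average signal, read here as its raw intensity, with its detection p-value. On this platform that p-value is set against negative controls, which the headers do not state. The authors' processed intensity, by its values, was linear, background-subtracted and quantile normalized (median 3.5 on all 6 arrays), with the centring before that unknown. The tool was GenomeStudio, per the submitters' processing notes, with no version or option given in the sources used here.

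Raw intensities were corrected and normalized with neqc (offset 16, log2) of limma 3.58.1 in R 4.3.3. The 14416 probes with detection p under 0.01 on at least 2 arrays were fitted with arm and time as additive terms, leaving 2 residual degrees of freedom to which moderation added 5.44. Tests were two-sided, with a false discovery rate of 0.05 over all these probes, and the residual spread is that between pools, with no replicate of any pool. The script was tested on simulated data. Of a gene's detected probes the brightest stood for it. A gene undetected in a group has a bound against, per array, the higher of its own signal and the dimmest detected probe. Symbols came from the platform annotation (34885 probes with 1, 18 with several, 10378 not listed), of which 34807 matched a GRCm38.p6 gene identifier and 0 changed.

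All probes of the 6 genes are named, and of each list the genes that passed plus up to 2 that did not, by size. Members and lists were chosen with earlier results of these data known. Alternatives covered the normalization, the detection filter, 1 probe per gene, an intensity trend and each array left out, and, chosen after the values were seen, the further term and the lists without RC at ZT14. The number of arrays, and signal over background, limit precision. Promoters were searched with Python 3.11.15.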

Additional observations from a re-analysis of the deposited data

Results flagged for a closer look

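For Arntl, ZT14 minus ZT2 lay on opposite sides of 0 in the high-fat arms and on chow, at 0.42 in NOB and 0.90 in HFD against -1.03 in RC, with at least 1.5-fold in HFD and in RC. Each value is the difference of 2 arrays. The added fit tested the gap between the high-fat arms and RC, which did not pass over all probes (limma adjusted p = 0.304). The RC pool of ZT14 held the most skeletal muscle transcripts and the HFD pool of ZT14 the next most. Their part in the RC and HFD values was not tested. At ZT2, where muscle markers were low in all 3 pools, Arntl stood at -1.23 for NOB minus RC and at -1.53 for HFD minus RC.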

How the results depend on the processing

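No paired analysis was possible because each arm and time has 1 array, so no replicate number joins arrays, though the additive terms compare times within arms and arms within times. The count of measured genes called for ZT14 minus ZT2, 1 in the analysis as reported, was 0 without a detection filter, 0 with probes detected on all 6 arrays, where Nr1d1 is not among those tested, 0 with 1 probe per gene, and 0 to 1 with an array left out. For HFD minus RC it was 0, or 0 to 1 with an array left out, the 1 being Arntl without RC at ZT14. For NOB minus HFD and NOB minus RC it stayed at 0 in all 14 alternatives.

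With median scaling, HFD minus RC turned to 0.0048 for Rora and 0.0058 for Clock, NOB minus HFD to -0.0221 for Arntl and -0.0129 for Clock, and NOB minus RC to 0.0517 for Nr1d1. That scaling moved the median of all probes to 0.24 in HFD minus RC and to 0.20 in NOB minus RC.

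With an array left out, ranges that crossed 0 were, for Arntl, -0.31 to 0.66 for ZT14 minus ZT2, -1.41 to 0.29 for HFD minus RC, -0.55 to 0.66 for NOB minus HFD and -1.35 to 0.34 for NOB minus RC. For Nr1d2 they were -1.05 to 0.43 for HFD minus RC and -0.44 to 1.04 for NOB minus RC. For Nr1d1 they were -0.57 to 0.0234 for HFD minus RC, -0.17 to 0.49 for NOB minus HFD and -0.44 to 0.23 for NOB minus RC. For NOB minus HFD they were -0.0825 to 0.14 for Clock and -0.22 to 0.0217 for Rora. For Nr1d2 the ranges on 1 side of 0 were -1.02 to -0.14 for ZT14 minus ZT2 and 0.0241 to 1.19 for NOB minus HFD. None of these differences was called in the analysis as reported.

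Counts over all probes moved more. For ZT14 minus ZT2 they were 21, against 47 with median scaling, 36 with detection on all 6 arrays, 2 with 1 probe per gene, 0 without a filter and 1 to 20 with an array left out. For HFD minus RC they were 908, against 2428 with median scaling, 584 with 1 probe per gene, 55 without a filter and 111 to 1052. For NOB minus HFD they were 25, against 75 with median scaling, 50 with an intensity trend, 48 at detection p under 0.05, 14 with 1 probe per gene, 0 without a filter and 0 to 63. For NOB minus RC they were 158, against 479 with median scaling, 273 with a trend, 85 with 1 probe per gene, 1 without a filter and 34 to 242. The added fit called 0 probes, against 64 with median scaling, 18 at detection p under 0.05, 16 without background correction, 3 with detection on all 6 arrays, 2 from the authors' values and 1 with 1 probe per gene. Without background correction Arntl gave 0.24 in NOB, 0.52 in HFD and -0.69 in RC for ZT14 minus ZT2, and Nr1d1 gave -0.98 over the arms. Signals near background limit the sizes for Arntl, Nr1d1, Nr1d2 and Pck1.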
